A study of Mus musculus with 4 samples.

Results

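Open chromatin was examined at 10 genes of transforming growth factor beta (TGF-beta) signalling in cultured B16F10 cells, an established melanoma line of the mouse. The genes were the ligand genes Tgfb1, Tgfb2 and Tgfb3, the receptor genes Tgfbr1 and Tgfbr2, the signal transducer genes Smad2, Smad3 and Smad4, and the inhibitor genes Smad7 and Skil. They were named by pathway role, out of 21887 protein-coding genes. Every peak overlapping a gene body (mm10) extended by 20 kb on each side was taken. The windows spanned 984 kb in all and held 84 of the 103629 merged regions. The libraries came from cells with a guide RNA against Arid1a (sgArid1a, n = 2) and from cells with a scrambled guide (sgScramble, n = 2). The Arid1a protein belongs to BAF, the mammalian SWI/SNF complex, which moves nucleosomes. Each library was an ATAC-seq reaction on 50000 cells, in which the Tn5 transposase cuts and tags open DNA, and was deposited as 1 list of broad peaks. Whether the cells were clones or pools, and whether replicates came from separate cultures, is not given in the sources used here, so the spread between replicates may be technical.

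TGF-beta ligands are secreted in a latent form and, once released, bind the type II receptor TGFBR2, which phosphorylates the type I receptor TGFBR1. The active type I receptor phosphorylates SMAD2 and SMAD3, which join SMAD4, enter the nucleus and bind DNA beside other transcription factors. SMAD7 blocks the receptors and SKIL (SnoN) holds Smad complexes in a repressed state, and the genes of both are themselves switched on by the pathway. In melanocytes TGF-beta restrains growth, and melanoma cells commonly secrete the ligands while resisting that restraint.

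The lists held 65353 and 71255 peaks over 53.7 and 62.6 Mb in sgArid1a replicates 1 and 2, against 82319 and 85613 peaks over 73.9 and 75.8 Mb in sgScramble replicates 1 and 2. They hold no read counts, so depth is unknown, and a region open in fewer cells and a region less open in each cell cannot be told apart. Peaks lay within 2 kb of an end of 10 of 10 melanocyte markers (Mitf, Sox10, Tyr and others) in every list. In sgArid1a replicates 1 and 2, peaks lay at 0 and 1 of 5 immune, 2 and 1 of 3 endothelial and 2 and 2 of 4 fibroblast markers, against 1 and 0, 2 and 2, and 2 and 2 in sgScramble replicates, and at 0 of 4 epithelial markers in every list. Ptprc, Tek, Epcam and Dcn had no such peak in any list, while the endothelial marker Cdh5 and the fibroblast markers Pdgfra and Lum had one in every list. The endothelial marker Pecam1 had one in every list but sgArid1a replicate 2. The immune marker Cd3e had one in sgArid1a replicate 2 and sgScramble replicate 1. The summed cover at fibroblast markers was 1553 and 2529 bp in sgArid1a and 3441 and 3828 bp in sgScramble lists, and its part in the results was not tested. Peaks cannot show whether Arid1a was disrupted: its own window was covered over 10235 and 11608 bp in sgArid1a and 14847 and 14646 bp in sgScramble lists. With 2 libraries a group, the exact two-sided permutation test cannot go below 0.333, so no difference below passed a test, and each is given against the spread between replicates.

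Peaks covered less of the windows in sgArid1a than in sgScramble cells, and the deficit was of the size seen in the lists as a whole. The summed covered length was 59681 and 72158 bp in sgArid1a replicates 1 and 2, against 81360 and 85214 bp in sgScramble replicates 1 and 2. The means were 65.9 ± 8.82 kb in sgArid1a and 83.3 ± 2.73 kb in sgScramble cells (SD, n = 2 each), a difference of -20.9% (exact permutation test, two-sided, p = 0.333). The groups did not overlap. As a share of everything covered in the same list, the windows took 0.111% and 0.115% in sgArid1a and 0.110% and 0.112% in sgScramble libraries, so after scaling to the total the summed difference was 1.72%, in the other direction (exact permutation p = 0.667). The number of peaks in the windows was 53 and 61 in sgArid1a and 74 and 74 in sgScramble lists.

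Gene by gene, the 4 values kept the groups apart at 8 of the 10 genes. At 7 of them (Tgfb2, Tgfbr1, Tgfbr2, Smad2, Smad3, Smad4 and Skil) both sgArid1a lists lay below both sgScramble lists, which was also the case for 57.8% of all 18323 gene windows with a peak. Tgfb3 was the 1 gene where both sgArid1a lists lay above, a pattern found at 2.53% of windows. Tgfb1 and Smad7 overlapped. The median difference was -22.4% over the 10 genes and -17.2% (-0.27 on the log2 scale) over all windows. Relative to each library's total, both sgArid1a lists lay below both sgScramble lists at 3 genes (Tgfb2, Tgfbr2 and Skil; 14.5% of all windows) and above at 3 (Tgfb1, Tgfb3 and Smad7; 34.5%). Scaling turned the sign at Tgfb1, Smad3, Smad4 and Smad7. It moved the median of all windows to 6.57% and that of the 10 genes to -0.13%.

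**Figure D1:**
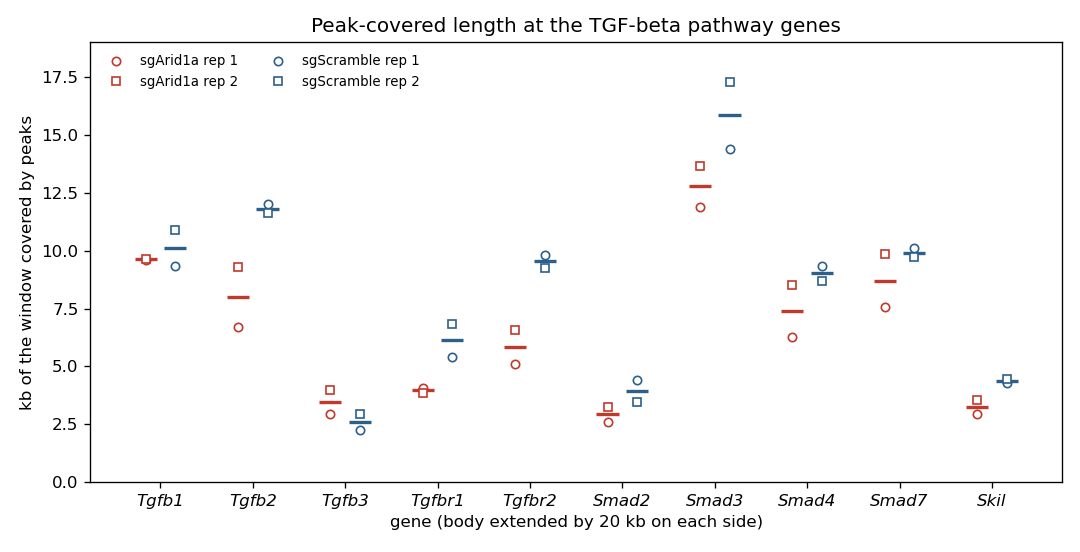
Kilobases of each gene's window (body extended by 20 kb on each side) covered by peaks. Circles are replicate 1, squares replicate 2, short bars the mean of 2 libraries, with sgArid1a left of sgScramble. Both sgArid1a points lie below both sgScramble points at 7 genes and above them at Tgfb3, and the points overlap at Tgfb1 and Smad7.

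**Figure D2:**
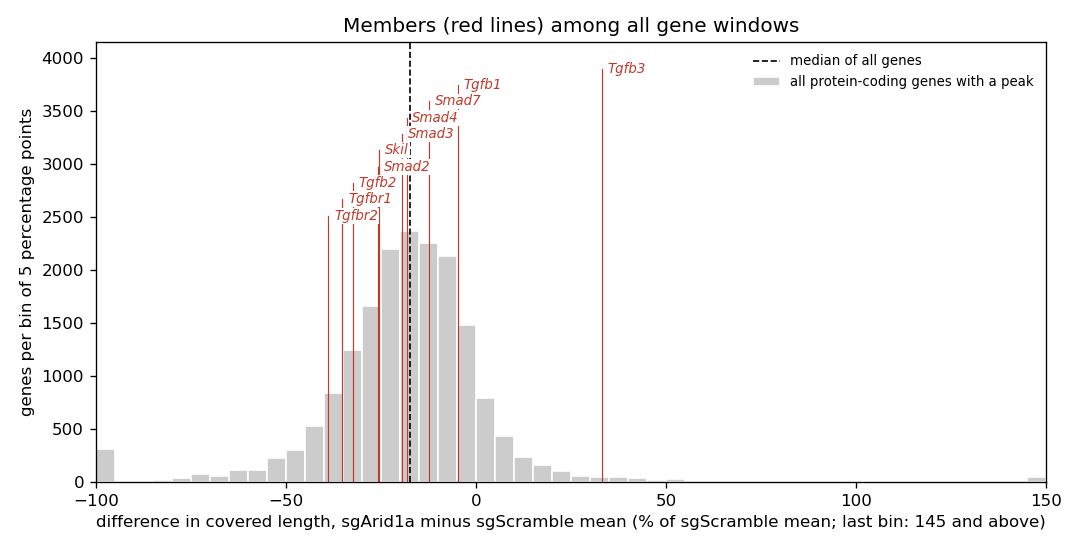
Difference in covered length, sgArid1a minus sgScramble mean as a percentage of the sgScramble mean, for all 18323 protein-coding gene windows with a peak (grey bars, genes per bin). Red lines mark the 10 TGF-beta pathway genes and the dashed line the median of all windows (-17.2%). Tgfbr2, Tgfbr1 and Tgfb2 stand farthest to the left of the 10, at -38.8%, -35.1% and -32.4%, and Tgfb3 stands at 33.2%.

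Region by region, both sgScramble lists had a peak at 65 of the 84 regions, and all 4 lists at 47 of these. In 9 of the 65 (13.8%) neither sgArid1a list had a peak, close to the 12.9% of all regions in both sgScramble lists. These 9, called missing regions here, lay at Tgfb2 (3), Smad7 (2), Tgfbr1, Tgfbr2, Smad2 and Smad4 (1 each), and none lay in the windows of Tgfb1, Tgfb3, Smad3 or Skil. A further 8 of the 65 (12.3%) had a peak in sgArid1a replicate 2 and not in replicate 1, against 10.2% of all such regions, and 1 (1.54%, against 4.54%) had it in replicate 1 and not in 2. No region had a peak in both sgArid1a lists and neither sgScramble list (0 of 47, which allows a share of up to 6.38% by 3 counts, against 1.39% of all regions in both sgArid1a lists). Among the 47 regions in every list, the sgArid1a peaks were narrower in both libraries at 18 (38.3%, against 40.6% of all such regions) and wider in both at 2 (4.26%, against 6.45%).

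All 9 missing regions lay over 1 kb from any protein-coding gene end. Of the 17 window regions within 1 kb of any protein-coding gene end that both sgScramble lists had, 0 were absent from both sgArid1a lists, which allows a share of up to 17.6%, against 3.08% of all such regions. Of the 48 farther away, 9 were missing (18.75%, against 15.1% of all such regions). All 11 regions at an end of the gene itself that both sgScramble lists had were in every list, at 9 of the 10 genes, with Tgfb2 the exception. Missing regions covered a median of 504 bp in the sgScramble lists (287.5 to 1616 bp), against 1319.5 bp for regions in every list. By the authors' fold of signal over background, ranked within each list so that 100 is the strongest peak, their mean percentile in the sgScramble lists had a median of 25.3 (0.26 to 39.7), against 55.8 for regions in every list. None of the 9 was above 43.8 in any list. Such ranks are used here only to place a region within its own list, since the lists differ in length.

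**Figure D3:**
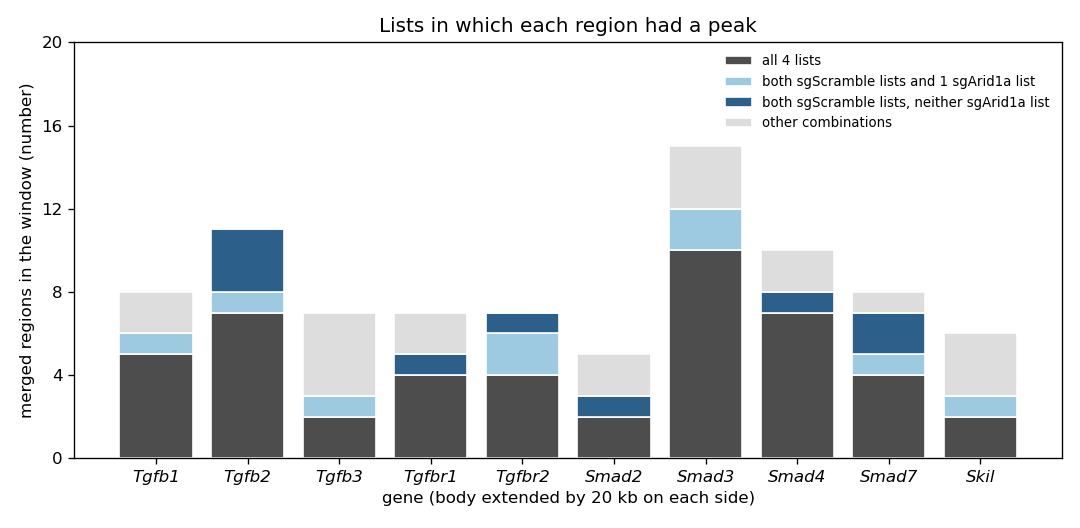
Number of merged regions in each gene's window, split by the lists that had a peak there. Dark blue marks the 9 regions that both sgScramble and no sgArid1a list had, 3 of them at Tgfb2 and 2 at Smad7; dark grey marks the 47 regions in every list.

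The promoters of the ligand and receptor genes show where peaks sat relative to transcription starts. RefSeq promoters (GRCm38.p6, the build of the mm10 coordinates) were matched for 5 of the 10 genes, Tgfb1, Tgfb2, Tgfbr1, Tgfbr2 and Smad3. The 250 bases before the start are given 5′ to 3′ along the gene's strand. They are shown for Tgfb2, whose promoter had no peak, and for 3 genes with a promoter covered in full in every list. Of the RefSeq starts of Tgfbr1, that at 47353222 is shown. Capitals mark matches, on either strand, to the motifs searched: GTCTAGA and CAGACAG (Smad), TGANTCA (AP-1), CATGTG and CACGTG (E-boxes, read by MITF and its relatives), GGGCGG (Sp1) and CCAAT (NF-Y). CCGCCC and ATTGG are GGGCGG and CCAAT read on the other strand. No 2 matches overlapped.
Tgfb2 (chr1:186705990-186706239, minus strand): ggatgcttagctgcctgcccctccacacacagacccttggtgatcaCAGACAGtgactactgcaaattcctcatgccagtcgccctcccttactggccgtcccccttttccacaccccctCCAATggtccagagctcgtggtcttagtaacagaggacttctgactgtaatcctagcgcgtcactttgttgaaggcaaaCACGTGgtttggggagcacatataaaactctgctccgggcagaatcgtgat
Tgfb1 (chr7:25686752-25687001, plus strand): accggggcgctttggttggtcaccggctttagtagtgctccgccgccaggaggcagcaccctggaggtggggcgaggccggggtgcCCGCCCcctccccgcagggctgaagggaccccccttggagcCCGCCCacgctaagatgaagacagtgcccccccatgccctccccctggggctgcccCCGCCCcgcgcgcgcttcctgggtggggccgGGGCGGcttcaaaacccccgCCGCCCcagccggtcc
Tgfbr1 (chr4:47352972-47353221, plus strand): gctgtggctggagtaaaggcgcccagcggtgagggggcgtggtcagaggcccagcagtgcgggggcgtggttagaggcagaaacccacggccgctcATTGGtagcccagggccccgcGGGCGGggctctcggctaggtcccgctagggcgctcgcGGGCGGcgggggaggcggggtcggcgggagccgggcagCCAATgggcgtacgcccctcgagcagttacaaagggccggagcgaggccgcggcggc
Tgfbr2 (chr9:116175364-116175613, minus strand): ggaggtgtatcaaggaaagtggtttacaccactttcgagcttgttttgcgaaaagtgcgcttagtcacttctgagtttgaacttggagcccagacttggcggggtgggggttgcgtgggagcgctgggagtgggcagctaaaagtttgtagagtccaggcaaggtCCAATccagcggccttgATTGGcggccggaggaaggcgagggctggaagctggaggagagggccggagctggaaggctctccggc

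The Tgfb2 stretch held 1 CAGACAG 204 bases before the start, 1 CCAAT at 130 and 1 CACGTG at 51, and the Sp1 motif was absent. The Smad motif CAGACAG occurred in 6.27% and the E-box CACGTG in 6.02% of the 32851 promoter stretches of this length in the RefSeq table, and GTCTAGA (1.83%), TGANTCA (6.75%) and CATGTG (12.3%) were not found in any of the 4. The Tgfb1 stretch held 5 GGGCGG matches and the Tgfbr1 stretch 2 GGGCGG and 2 CCAAT, while Tgfbr2 held 2 CCAAT matches. The Sp1 motif GGGCGG occurred in 32.7% of all stretches, and in 60.7% of the 13139 that had peak cover in every list, and CCAAT in 33.8% and 35.2%. The GC content was 53.6% for Tgfb2, 75.2% for Tgfb1, 74.8% for Tgfbr1 and 58.4% for Tgfbr2. Such matches describe the letters only. The 250 bases were covered in full in all 4 lists at Tgfb1, the Tgfbr1 start shown, Tgfbr2 and Smad3. They had no cover in any list at Tgfb2 or at the second RefSeq start of Tgfbr1, 47386216. That Tgfbr1 stretch held 1 CAGACAG, 203 bases before its start. Of all stretches, 40.0% had cover in every list.

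Among the ligand genes, Tgfb2 had the most missing regions of the 10 genes, Tgfb1 had none and Tgfb3 had more cover in sgArid1a lists as called, though less with stricter peaks or a wider window. Tgfb2 (chromosome 1, 186622787 to 186709697) encodes a ligand with wide roles in development. Its window was covered over 6699 and 9276 bp in sgArid1a replicates 1 and 2, against 12008 and 11617 bp in sgScramble replicates 1 and 2. Both sgArid1a values lay below both sgScramble values, with sgArid1a replicate 1 the lowest. The means were 7987.5 ± 1822 bp in sgArid1a libraries and 11812.5 ± 276 bp in sgScramble libraries (n = 2 each, ± SD), differing by -32.4% (exact permutation p = 0.333), by -28.4% with lists of equal length and by -13.6% after scaling to the total. Both sgScramble lists had all 11 of its regions, and 7 of these were in every list.

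The 3 Tgfb2 regions missing from both sgArid1a lists were small or moderate peaks. Inside the gene body, the region at 186627422 to 186627877 covered 375 and 452 bp in sgScramble replicates 1 and 2, and that at 186658298 to 186658608 covered 311 and 264 bp. The region at 186718800 to 186719983 covered 886 and 1184 bp and lay 1102 bp from an end of the neighbouring gene Rrp15, which encodes a ribosomal RNA processing protein. Their mean fold percentiles were 25.3, 33.4 and 22.1. Another region, at 186638084 to 186638717, had 501 bp in sgArid1a replicate 2 and 0 bp in replicate 1, against 605 and 473 bp in sgScramble replicates 1 and 2.

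The widest Tgfb2 region, at 186701435 to 186705862, began just downstream of the start in the promoter table, 186705989, which lies inside the gene as annotated. Its edge nearest that start lay 127 and 169 bp downstream in sgArid1a replicates 1 and 2, against 161 and 216 bp in sgScramble replicates 1 and 2. It covered 2460 and 3181 bp in sgArid1a replicates, against 4257 and 4339 bp in sgScramble replicates. The edge toward the start was therefore at a like place in the 4 lists, and the peak holding it reached 1838 and 3349 bp downstream in sgArid1a lists, against 4417 and 4554 bp in sgScramble lists. In sgArid1a replicate 1 the region was split into 2 peaks. The strongest region of the window, at 186609529 to 186610627, had fold percentiles of 91.5 and 94.5 in sgArid1a and 91.4 and 93.2 in sgScramble lists, and covered 1015 and 1093 bp in sgArid1a and 1075 and 1039 bp in sgScramble lists.

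Tgfb1 (chromosome 7, 25687002 to 25705077) encodes a widely expressed ligand that restrains growth and inflammation in many tissues. Its window was covered over 9599 and 9659 bp in sgArid1a replicates, against 9336 and 10894 bp in sgScramble replicates, and the groups overlapped. The means were 9629 ± 42.4 bp in sgArid1a libraries and 10115 ± 1102 bp in sgScramble libraries (SD, n = 2 each). The difference was -4.80% (exact permutation p = 1.0), and lists of equal length gave 3.15%. The region over the transcription start, at 25686574 to 25689742, covered 3129 and 2957 bp in sgArid1a lists and 3008 and 2941 bp in sgScramble lists, with fold percentiles from 30.0 to 33.8. Of the 8 regions in this gene-dense window, 5 lay nearest to the neighbours Tmem91, B9d2, Ccdc97 and Hnrnpul1. The 1 region that both sgScramble lists and sgArid1a replicate 1 had, but not sgArid1a replicate 2, was among them, 759 bp from an end of Hnrnpul1, a gene for an RNA-binding protein.

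Tgfb3 (chromosome 12, 86056743 to 86079041) encodes a ligand known for its part in palate fusion and wound repair. Its window was covered over 2950 and 3975 bp in sgArid1a replicates, against 2251 and 2947 bp in sgScramble replicates. The lower sgArid1a and the higher sgScramble value were only 3 bp apart. The means were 3462.5 ± 725 bp in sgArid1a libraries and 2599 ± 492 bp in sgScramble libraries (SD, n = 2 each). The difference was 33.2% (exact permutation p = 0.333). No region that both sgArid1a lists had was wider in both. In sgArid1a replicate 1 alone, 1088 bp lay in a region inside the neighbouring gene Ttll5. In sgArid1a replicate 2 alone, 543 bp lay over an end of Tgfb3. A further region inside Ttll5, at 86035842 to 86037878, crossed the window's edge. It held 1136 bp of the window in sgArid1a replicate 2 and 384 bp in sgScramble replicate 2. Of the 7 regions, 5 lay nearest to the neighbours Ttll5 and Ift43. With the regions of Tgfb3 itself the difference was 20.2% and the groups overlapped. The 2 regions in every list did not separate the groups. That at 86078522 to 86079851, over the other end of Tgfb3, covered 1320 and 1310 bp in sgArid1a and 1324 and 1315 bp in sgScramble lists, and that at 86082463 to 86083030, over an end of Ift43, covered 542 and 552 bp in sgArid1a and 566 and 533 bp in sgScramble lists. With peaks of a −log10 q of at least 5 the difference turned to -17.4%, and with an extension of 50 kb to -20.7%. It was 13.5% without sgArid1a replicate 2 and 53.8% without sgScramble replicate 2.

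Both receptor genes had less cover in sgArid1a lists as called, though the groups overlapped at Tgfbr1 once cover was scaled to each list's total. Tgfbr2 (chromosome 9, 116087695 to 116175363), the type II receptor gene, was covered over 5109 and 6568 bp in sgArid1a replicates, against 9817 and 9265 bp in sgScramble replicates. The groups were well apart, and the means were 5838.5 ± 1032 bp in sgArid1a libraries and 9541 ± 390 bp in sgScramble libraries (n = 2 each, ± SD), differing by -38.8% (exact permutation p = 0.333). The difference was -33.3% with lists of equal length and -21.6% after scaling to the total. Both sgScramble lists had all 7 regions of the window.

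Of the 4 Tgfbr2 regions in every list, 2 lay at gene ends, while the 3 others lay in the gene body. The region over the transcription start, at 116174381 to 116176021, covered 1597 and 1600 bp in sgArid1a lists and 1596 and 1608 bp in sgScramble lists, with fold percentiles of 86.3 and 89.3 in sgArid1a and 88.2 and 87.5 in sgScramble lists. Its width was thus nearly the same in the 4 lists. Inside the gene body, 7518 bp from that end, the region at 116166384 to 116167845 was missing from both sgArid1a lists and covered 1387 and 1381 bp in sgScramble lists, at fold percentiles of 27.2 and 31.9. It was the second widest of the 9 missing regions by mean cover. The gene-body regions at 116133210 to 116134859 and 116150742 to 116151503 had 0 bp in sgArid1a replicate 1, and 319 and 363 bp in replicate 2. In sgScramble replicates 1 and 2 the first covered 1529 and 1650 bp and the second 762 and 603 bp.

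Tgfbr1 (chromosome 4, 47353222 to 47414926), the type I receptor gene, was covered over 4085 and 3860 bp in sgArid1a replicates, against 5405 and 6844 bp in sgScramble replicates. The sgArid1a values lay close together and below both sgScramble values. Their means were 3972.5 ± 159 bp in sgArid1a libraries and 6124.5 ± 1018 bp in sgScramble libraries (SD, n = 2 each). The difference was -35.1% (exact permutation p = 0.333), -31.9% with lists of equal length and -15.8% after scaling, where the groups overlapped. The start region at 47351574 to 47354168 covered 2423 and 2466 bp in sgArid1a and 2464 and 2581 bp in sgScramble lists. The second RefSeq start of the gene, at 47386216, had no peak nearer than 13651 bp in any list.

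Away from its start, some Tgfbr1 regions were narrower in the sgArid1a lists or missing from them, and others did not separate the groups. The region at 47342501 to 47343210, 10011 bp before the start, was in every list. It covered 615 and 247 bp in sgArid1a and 516 and 710 bp in sgScramble lists, which overlapped. The region at 47429740 to 47431179, 14813 bp beyond the far end, covered 630 and 543 bp in sgArid1a and 1407 and 1312 bp in sgScramble lists, with fold percentiles of 74.3 and 68.5 in sgArid1a and 76.0 and 65.0 in sgScramble lists. The gene-body region at 47406949 to 47407973 covered 417 and 604 bp in sgArid1a and 727 and 1025 bp in sgScramble lists. The region at 47419477 to 47420153, 4550 bp beyond the far end, was missing from both sgArid1a lists and covered 291 and 677 bp in sgScramble lists. No other protein-coding gene lay in the window.

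**Figure D4:**
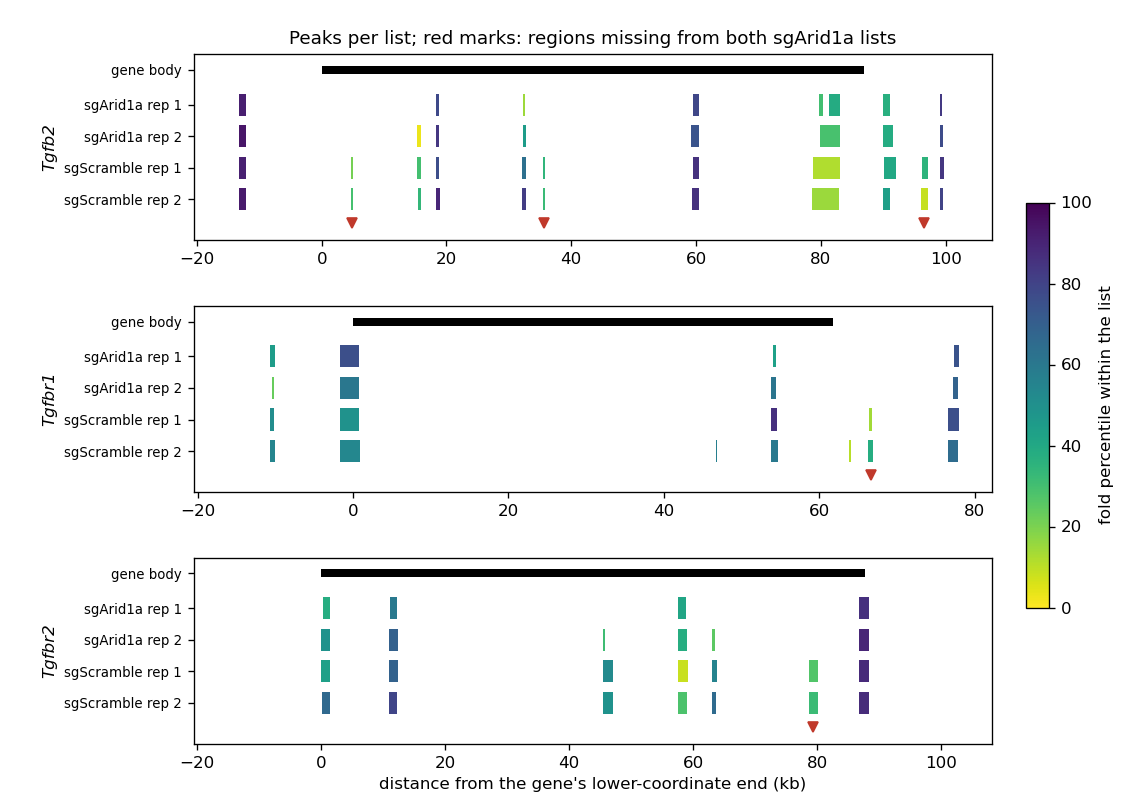
Peaks of each list at Tgfb2, Tgfbr1 and Tgfbr2, by distance in kb from the gene's lower-coordinate end; the black bar is the gene body, rows run from sgArid1a to sgScramble, and colour gives the fold percentile within the list. Red marks show the 3, 1 and 1 regions missing from both sgArid1a lists, none of them over a gene end.

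Among the transducers, Smad2 and Smad4 had 1 missing region each and Smad3 had none. Smad3 (chromosome 9, 63646766 to 63757994) encodes a receptor-activated Smad that binds DNA directly. Its window held 15 regions, the most of the 10 genes, and was covered over 11881 and 13666 bp in sgArid1a replicates, against 14398 and 17308 bp in sgScramble replicates. Both sgArid1a values lay below both sgScramble values, with means of 12773.5 ± 1262 bp in sgArid1a and 15853 ± 2058 bp in sgScramble libraries (SD, n = 2 each) and a difference of -19.4% (exact permutation p = 0.333), but with lists of equal length the groups overlapped (-12.4%) and after scaling the difference was 3.83%. Of the 12 regions in both sgScramble lists, 10 were in every list. At 6 of these 10 the sgArid1a peaks were narrower in both libraries, beside 40.6% of all regions in every list.

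The Smad3 regions that were narrower included the start and several gene-body regions. The start region at 63756665 to 63758728 covered 1978 and 1707 bp in sgArid1a and 2037 and 2058 bp in sgScramble lists. The region at 63677487 to 63679575 covered 370 bp in sgArid1a replicate 1 and 1884 bp in replicate 2, against 2010 and 2058 bp in sgScramble replicates 1 and 2. Here sgArid1a replicate 1 stood apart from the other 3 lists. The region at 63656945 to 63657597 covered 379 and 247 bp in sgArid1a and 643 and 631 bp in sgScramble lists. The regions at 63725896 to 63727136, in the gene body, and at 63643053 to 63644518, 72 bp from an end of the neighbour Aagab, had a peak in sgArid1a replicate 2 and not in replicate 1. The RefSeq stretch of 250 bases before the Smad3 start (chr9:63757995-63758244, minus strand) held 2 GGGCGG matches.

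Smad2 (chromosome 18, 76241090 to 76311748) encodes the other receptor-activated Smad of this branch. Its window was covered over 2606 and 3251 bp in sgArid1a replicates, against 4424 and 3459 bp in sgScramble replicates. The means were 2928.5 ± 456 bp in sgArid1a and 3941.5 ± 682 bp in sgScramble libraries (n = 2 each, ± SD), differing by -25.7% (exact permutation p = 0.333), and by -4.80% after scaling, where the groups overlapped. The region over a gene end, at 76240770 to 76242525, covered 1460 and 1600 bp in sgArid1a and 1751 and 1666 bp in sgScramble lists. It stood at fold percentiles of 94.1 and 96.1 in sgArid1a lists and 77.3 and 80.5 in sgScramble lists. The gene-body region at 76297976 to 76298601 was missing from both sgArid1a lists and covered 382 and 626 bp in sgScramble lists, and its mean fold percentile of 39.7 was the highest of the 9 missing regions.

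Smad4 (chromosome 18, 73634790 to 73703791) encodes the common partner of the activated Smads. Its window was covered over 6248 and 8509 bp in sgArid1a replicates, against 9341 and 8707 bp in sgScramble replicates. The higher sgArid1a value was 8509 bp and the lower sgScramble value 8707 bp, so the groups only just separated. With means of 7378.5 ± 1599 bp in sgArid1a and 9024 ± 448 bp in sgScramble libraries (SD, n = 2 each), the difference was -18.2% (exact permutation p = 0.333), -2.29% with lists of equal length, where the groups overlapped, and 4.53% after scaling. It was -5.71% without sgArid1a replicate 1 and -30.8% without sgArid1a replicate 2. The gene-body region at 73639885 to 73641159 was missing from both sgArid1a lists and covered 1275 and 272 bp in sgScramble lists. The region over a gene end, at 73701937 to 73704449, covered 1538 and 2306 bp in sgArid1a and 2363 and 1603 bp in sgScramble lists, so its widths overlapped. A strong flanking region at 73622533 to 73624466 covered 1129 and 1453 bp in sgArid1a and 1928 and 1881 bp in sgScramble lists, at fold percentiles of 94.1 and 87.0 in sgArid1a and 79.3 and 70.5 in sgScramble lists.

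The inhibitor genes differed from each other in how their peaks ranked. Smad7 (chromosome 18, 75367365 to 75395935) was covered over 7551 and 9836 bp in sgArid1a replicates, against 10119 and 9708 bp in sgScramble replicates. The groups overlapped, with means of 8693.5 ± 1616 bp in sgArid1a and 9913.5 ± 291 bp in sgScramble libraries (SD, n = 2 each) and a difference of -12.3% (exact permutation p = 0.667), which was -0.78% without sgArid1a replicate 1 and -23.8% without sgArid1a replicate 2. Its peaks were wide and of low fold: the highest fold percentile of any of its regions in any list was 44.9. At 2 of its 4 regions in every list the sgArid1a peaks were wider in both libraries, the only such regions in the 10 windows. The gene-end region at 75366369 to 75370693 covered 3222 and 4268 bp in sgArid1a and 2891 and 3172 bp in sgScramble lists. There sgArid1a replicate 2 had 1 peak, at a fold percentile of 4.94, where each other list had 2 peaks. The stronger of these stood at 44.9 in sgArid1a replicate 1 and at 40.5 and 38.2 in sgScramble replicates 1 and 2. The gene-body region at 75385164 to 75387881 covered 2503 and 2543 bp in sgArid1a and 1941 and 1762 bp in sgScramble lists.

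Smad7 also had 2 missing regions, so narrower and wider regions stood side by side there. The region at 75404137 to 75405897, 8201 bp beyond the gene, covered 1675 and 1557 bp in sgScramble lists, the widest of the 9 missing regions by mean cover. The gene-body region at 75380413 to 75380906 covered 448 and 407 bp at fold percentiles of 0.236 and 0.289, among the weakest peaks called. With lists cut to an equal length of 65353 peaks by −log10 p, the window was covered over 7551 and 8930 bp in sgArid1a and 5923 and 5736 bp in sgScramble lists, a difference of 41.4% in the other direction. The direction at Smad7 thus turned with list length.

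**Figure D5:**
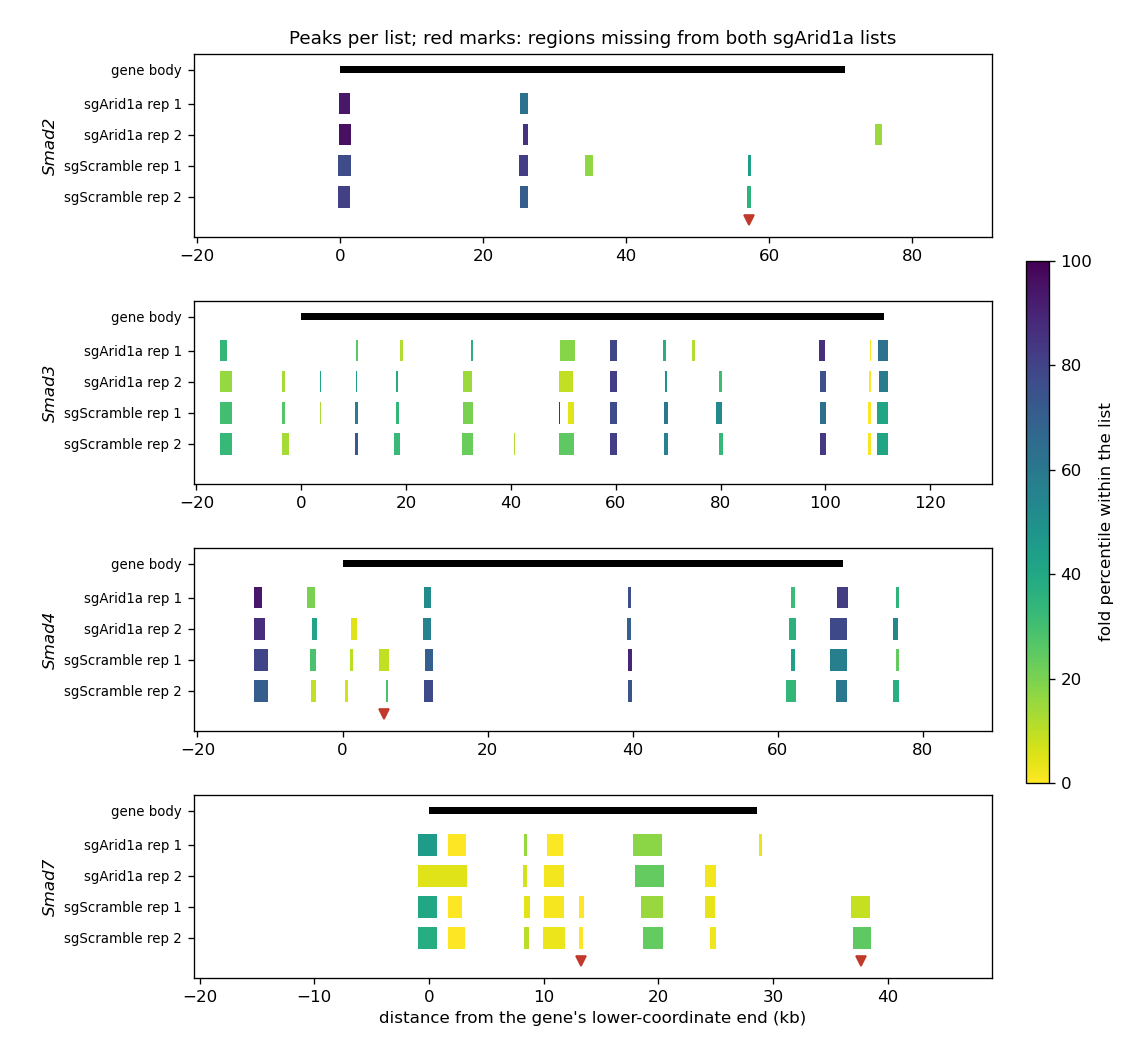
Peaks of each list at Smad2, Smad3, Smad4 and Smad7, drawn as distance in kb from the gene's lower-coordinate end, with the gene body as a black bar, sgArid1a rows above sgScramble rows and colour for the fold percentile within the list. Red marks show the missing regions (1 at Smad2, 0 at Smad3, 1 at Smad4, 2 at Smad7); the yellow and green bars at Smad7 are its low-fold peaks.

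Skil (chromosome 3, 31095058 to 31122923) encodes a corepressor of Smad complexes. Its window was covered over 2953 and 3558 bp in sgArid1a replicates, against 4261 and 4465 bp in sgScramble replicates, with means of 3255.5 ± 428 bp in sgArid1a and 4363 ± 144 bp in sgScramble libraries (SD, n = 2 each). The difference was -25.4% (exact permutation p = 0.333), -17.0% with lists of equal length and -4.09% after scaling, and the groups were apart each time. The gene-end region at 31093719 to 31095929 covered 2094 and 2124 bp in sgArid1a and 2185 and 2208 bp in sgScramble lists, at fold percentiles of 80.6 and 80.5 in sgArid1a and 68.1 and 59.7 in sgScramble lists. The region at 31077685 to 31078585, 16472 bp before that end, had 0 bp in sgArid1a replicate 1 and 709 bp in replicate 2, against 685 and 901 bp in sgScramble replicates 1 and 2. Of the 6 regions, 2 were in every list and 3 in 1 sgScramble list only. The other region in every list, at 31138556 to 31139464, lay nearer to the claudin gene Cldn11 and covered 859 and 725 bp in sgArid1a and 721 and 754 bp in sgScramble lists.

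The counts moved with list length. With lists of equal length, both sgScramble lists had 54 regions, of which 5 (9.26%, against 6.97% of all such regions) were absent from both sgArid1a lists, 2 at Tgfb2 and 1 each at Tgfb3, Tgfbr2 and Smad2. Only 3 of the 9 regions named above were among them, the Tgfb2 region at 186658298 and the Tgfbr2 and Smad2 regions. At Smad4, 1 of 47 regions was then in both sgArid1a lists alone, against 4.37% of all such regions. Both sgArid1a lists lay below both sgScramble lists in cover at 5 genes (Tgfb2, Tgfbr1, Tgfbr2, Smad2 and Skil; 39.0% of all windows) and above at 2 (Tgfb3 and Smad7; 8.83%). With 1 library left out, fewer lists decide what is missing. Missing regions then numbered 10 of 65 without sgArid1a replicate 1 and 17 of 66 without sgArid1a replicate 2. They numbered 15 of 73 without sgScramble replicate 1 and 13 of 71 without sgScramble replicate 2. The shares over all regions were not computed with a library left out.

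Other genes of the pathway also had less cover in sgArid1a lists as called, but not after scaling to each list's total. Of the 77 with a region, 12 then lay lower and 20 higher in both sgArid1a lists, beside 14.5% and 34.5% of all windows. In 5 lists of 79 genes, 77 had a region, and both sgArid1a lists lay below both sgScramble lists in covered length at 53 and above at 0, beside the 57.8% and 2.53% of all windows. Both sgScramble lists had 465 of their regions, of which 40 (8.60%) were absent from both sgArid1a lists, and 6 of 377 regions in both sgArid1a lists were absent from both sgScramble lists, beside 12.9% and 1.39% of all regions. With lists of equal length these counts were 15 of 384 and 11 of 367, beside 6.97% and 4.37% of all regions. The median difference in covered length was -18.0%. Over all regions in both sgScramble lists, 3.08% within 1 kb of a gene end and 15.1% farther away were missing. The regions of the 79 genes were not split in this way, so the part of gene-end distance in their shares was not tested.

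By role, genes for ligand storage and release had 8 of 88 regions missing (9.09%, beside the 12.9% of all regions). With lists of equal length they had 3 of 69 missing, beside 6.97% of all such regions. In the sgArid1a lists alone there were then 3 of 63, beside 4.37%. As called, the 8 lay at 7 genes, not all named here. The integrin gene Itgb8, whose product helps to free latent TGF-beta, had 2 of 8. The integrin genes Itgav and Itgb6 had 1 of 8 and 1 of 10. Furin, a gene for a protease that cleaves the precursor, had 1 of 6. Nrros, a gene for a latent TGF-beta anchor, had 1 region in the sgArid1a lists alone as called. With equal lengths Itgav and Furin had 0 missing, and Itgav, Itgb6 and Furin each had 1 region in the sgArid1a lists alone. Other ligands and antagonists had 4 of 45 missing (8.89%), and 3 of 38 with equal lengths. As called, the 4 lay 1 each at Nodal, at Inha, an inhibin subunit gene, and at Fstl3 and Chrd, genes for secreted antagonists. The window of Nodal, the embryonic patterning ligand gene, was covered over 1353 and 1265 bp in sgArid1a replicates, against 2488 and 3151 bp in sgScramble replicates.

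Other receptor genes had 9 of 88 regions missing (10.2%). Eng, the endoglin co-receptor gene, had 2 of 11 and Bmpr1b, a bone morphogenetic protein (BMP) receptor gene, had 2 of 6. A further 5 genes had 1 each, among them the activin receptor genes Acvr1 and Acvr1b and the BMP receptor gene Bmpr2. Acvrl1 and Bmpr2 each had 1 region in the sgArid1a lists alone. With lists of equal length 2 of 73 regions were missing, with 0 at Eng and 0 at Bmpr1b. In the sgArid1a lists alone there were then 2 of 72. The shares of all such regions were 6.97% and 4.37%. Other Smads, partners and regulators had 14 of 148 missing (9.46%), and 5 of 122 with equal lengths. As called there were 2 of 26 at Nedd4l and 2 of 7 at Usp15, genes of the ubiquitin system. Tgif2, a corepressor gene, had 2 of 6 and Pmepa1, a feedback inhibitor gene, had 2 of 8. With equal lengths Nedd4l had 0 of 19, Usp15 1 of 5, Tgif2 1 of 5 and Pmepa1 1 of 7. As called, Nedd4l, Tgif2 and Zfyve9 each had 1 region in the sgArid1a lists alone. Zfyve9, which encodes the Smad anchor SARA, was named after its value was seen.

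Known targets of the pathway had 5 of 96 regions missing (5.21%, beside the 12.9% of all regions), 2 of 8 at Tgfbi and 1 each at Thbs2, a thrombospondin gene, Cdkn1a, a cell cycle inhibitor gene, and Junb, an AP-1 subunit gene. With lists of equal length 2 of 82 were missing, with 0 at Tgfbi and 0 at Cdkn1a, beside 6.97% of all such regions. In the sgArid1a lists alone there were then 3 of 78, beside 4.37% of all such regions. Tgfbi, which encodes an extracellular matrix protein induced by TGF-beta, was covered over 2489 and 3088 bp in sgArid1a replicates, against 5765 and 5551 bp in sgScramble replicates, a difference of -50.7%. Of the 20 target genes, 19 had a region. Both sgArid1a lists lay below both sgScramble lists at 14 of these, beside the 57.8% of all windows. After scaling 3 lay lower and 7 higher, beside 14.5% and 34.5% of all windows.

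Of the 77 genes, Acvr1b, an activin type I receptor gene, had the covered lengths most like the summed lengths of the 10, measured as the distance between the 4 values divided by their mean (0.00983 over 4 lists). It was covered over 5988 and 7344 bp in sgArid1a replicates, against 8228 and 8581 bp in sgScramble replicates. Nedd4l (0.0476) and Ltbp3 (0.0553), which encodes a latent TGF-beta binding protein, came next. Over 4 lists such likeness is a description of these libraries only.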

How the data were processed

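Peaks, not reads, were the starting point. For each library the authors deposited 1 list of broad peaks, whose columns hold the coordinates, a score, the fold as a linear ratio, and the p-value and q-value as −log10. The submitters' processing notes name STAR 2.5.3a, HOMER, GRCm38 and mm10, with no role for any. No source used here gives the peak caller or a Tn5 shift. Groups and replicate numbers came from the sample titles, and peak names in the sgScramble lists begin with sgNT.

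Autosomal, X and Y peaks of the 4 lists were merged into regions where they shared at least 1 bp, and a region counted as present in a list with a peak in it. Gene positions (GRCm38.p6, RefSeq) had no strand, so either end counted as a gene end. Promoters came from a RefSeq promoter table. Covered length per window was compared by an exact two-sided permutation test over libraries, and counts were set beside the same share over all regions or windows. A share of 0 was given the limit that 3 counts allow, which covers counting error only. The 10 genes, the pathway lists and the settings were chosen with earlier results of these data known. All 10 genes are described, each missing region by place, and of the pathway lists up to 4 genes with the most missing and 2 with the most sgArid1a-only regions. Alternatives were other thresholds, widths, merging, overlap, windows, list lengths, leaving out each library and the replicate number as a block, and scaling to the list's total was added after the data were seen. On simulated lists, 200 of 200 planted missing regions and 200 of 200 planted sgArid1a-only regions were recovered among 103629 regions. All other regions were put in every simulated list, unlike in the real lists. The simulation therefore checked the counting steps only and does not measure how reliable the calls are. Python 3.11.15, numpy 2.4.6, pandas 2.3.3, SciPy 1.17.1 and matplotlib 3.10.9 were used.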

Additional observations from a re-analysis of the deposited data

How the results depend on the processing

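The number of regions missing from both sgArid1a lists (9) was 5 with lists of equal length and 17 with an extension of 50 kb, and ranged from 10 to 17 when a library was left out. Regions in the sgArid1a lists alone (0 of 47) numbered 1 of 47 with equal lengths and 1 of 20 with the upper 50% of peaks by fold. Without a library they numbered 0 of 47 to 3 of 52. The summed difference in covered length (-20.9%) was -10.8% with equal lengths, -31.3% with a −log10 q of at least 5 and 1.72% after scaling to each list's total, and when a library was left out it ranged from -13.4% without sgArid1a replicate 1 to -28.3% without sgArid1a replicate 2. The number of genes lower in both sgArid1a lists (7) was 10 with an extension of 50 kb, 5 with equal lengths, 4 with the upper 50% by fold, 3 after scaling, and 7 to 8 without a library. At the single genes, 135 of 149 alternative values kept their direction, with Tgfb2, Tgfbr1, Tgfbr2, Smad2 and Skil keeping it under all 15 alternatives. The replicate block and merging within 1 kb left each gene's difference as it was by construction, so neither could turn a direction. The other direction was found at Tgfb1 with equal lengths (3.15%), the upper 50% by fold (0.76%), the gene body with no extension (0.049%), the regions of the gene itself (14.6%), scaling (23.3%) and without sgScramble replicate 2 (3.14%, the top of a range whose lowest value was -11.6%, without sgScramble replicate 1). It was found at Smad7 with equal lengths (41.4%), with no extension (4.33%) and with scaling (12.3%), at Tgfb3 with a −log10 q of at least 5 (-17.4%), the upper 50% by fold (-0.34%) and 50 kb (-20.7%), and with scaling at Smad3 (3.83%) and Smad4 (4.53%). The cause was not tested. Leaving out a library gave -43.3% to -21.5% at Tgfb2, 13.5% to 53.8% at Tgfb3, -42.0% to -26.5% at Tgfbr1, -46.5% to -31.2% at Tgfbr2, -33.9% to -15.3% at Smad2, -26.2% to -11.3% at Smad3, -30.8% to -5.71% at Smad4, -23.8% to -0.78% at Smad7 and -32.3% to -18.5% at Skil. Smad7 had no peak in the upper 50% by fold, so that setting gave no value there. With the replicate number as a block the count stayed 7 and the exact p of the summed difference was 0.5, the smallest that 2 pairs allow. The deviations of same-numbered libraries from their group means had a correlation of r = 0.01 across 17339 genes. These 2 pairs do not tell whether a number marks a shared culture or day, and no label gives it. Depth is unknown, and no setting replaces read counts.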
